A study of Caenorhabditis elegans with 12 samples.

Results

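Whole adult worms of Caenorhabditis elegans kept for 48 h on plates with 100 µM bromhexine were compared, gene by gene, with worms on plates with the solvent DMSO. The comparison uses 8 of the 12 libraries of the series, 4 with bromhexine and 4 with DMSO, and covers all 13309 of the 46926 genes in the deposited table that passed a filter on low counts. The bromhexine group received the drug dissolved in DMSO for 2 days from the young adult stage, and the DMSO group received DMSO alone for the same time. Both groups were wild-type N2 hermaphrodites, synchronized and grown at 20 °C on agar with the bacterial strain OP50-1 and 200 µg/mL streptomycin, and the plates of both groups held FUDR, an inhibitor of DNA synthesis that keeps the adults from being outnumbered by their progeny. Both were collected whole, and the labels put them in batch 1. Bromhexine is a drug used in people to thin airway mucus. Whether the 4 samples of a group came from separate cultures is not in the labels. The p values therefore rest on the scatter among these samples, part of which may be technical.

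Worms answer many small foreign molecules by raising enzymes that oxidize them, enzymes that attach sugars or other groups to them, and pumps that export them. Many of these enzymes belong to families whose genes lie side by side, often towards the ends of chromosomes, and the same regions hold other large families such as the F-box genes, which encode adaptors that choose substrates for a ubiquitin ligase. The adult cuticle is a collagen matrix made by the epidermis, and its collagens are expressed mostly around each molt.

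Library totals were 20.8 to 27.9 M counts with bromhexine and 20.8 to 28.1 M with DMSO, and 16893 to 17650 genes had a count in each library. Levels are given as CPM, counts per 1 M of a library's total after TMM scaling. The adult cuticle collagen gene col-19, a marker of the adult stage, lay at 205 to 390 CPM with bromhexine and 213 to 293 with DMSO, and the muscle myosin gene unc-54, the intestinal esterase gene ges-1 and the neuronal gene unc-119 were detected in every library. These markers also changed: ges-1 lay at 73.4 to 92 CPM with bromhexine and 27.4 to 31.9 with DMSO (log2 fold change 1.43 ± 0.09, adjusted p = 8.02e-08, edgeR), unc-54 at 399 to 537 and 192 to 438 CPM (0.58 ± 0.19, adjusted p = 0.0279, edgeR, with overlapping groups), and unc-119 at 13.4 to 22.3 and 25.8 to 30.4 CPM (-0.74 ± 0.14, adjusted p = 0.00146, edgeR). In a principal component analysis of log2 CPM the groups separated on the leading axis (66.6% of the variance), with bromhexine libraries at 30.8 to 52 and DMSO libraries at -49.5 to -41.2. Bromhexine replicate 4, at 30.8, lay nearest to DMSO. It had the highest of the 4 bromhexine values in 675 of the 993 genes (68%) that fell at least 2-fold, and in 143 of the 378 (37.8%) that rose at least 2-fold. Counts of falling runs and of falling F-box B, F-box C and sdz genes are also given without this library.

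Of the 13309 genes, 2524 (19.0%) were higher and 2979 (22.4%) lower with bromhexine at an adjusted p under 0.05 in edgeR's quasi-likelihood test. At least 2-fold changes were fewer and leaned downward: 378 genes (2.84%) rose and 993 (7.46%) fell by that much. In 355 and 921 of them the 4 libraries of the groups did not overlap. These genes were called on the same libraries, so the lack of overlap adds no separate support. The extreme changes leaned the other way, with 74 genes up and 44 down by at least 8-fold. The median log2 fold change of all tested genes was 0.00. Upper quartile scaling moved the balance of called genes to 2043 higher and 3350 lower, and DESeq2 gave 2833 and 2912.

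The largest increases, ranked by fold with no limit on abundance, were genes close to 0 in DMSO. The cytochrome P450 gene cyp-35B3 (WBGene00019470) stood at 345, 395, 328 and 375 CPM in the 4 bromhexine libraries and at 0 in all 4 DMSO libraries, at least 11092-fold higher when the DMSO group is set to a floor of 3 counts in all (adjusted p = 6.84e-12, edgeR). A gene known by its sequence name, F38C2.1 (WBGene00009535, IV, start 16247431, end 16251790 of WBcel235), had 10.1, 9.25, 8.76 and 9.57 CPM with bromhexine and 0 in all DMSO libraries, at least 288-fold (adjusted p = 1.98e-08, edgeR). The pseudogene WBGene00206411 (V, start 809465, end 809832) had 1.42, 1.54, 1.80 and 2.15 CPM with bromhexine and likewise 0 with DMSO, at least 53.8-fold (adjusted p = 1.25e-05, edgeR). These 3 were the genes with 0 counts in every DMSO library and at least 10 in every bromhexine library. A further gene, C01G12.5 (WBGene00007245, II, start 14586527, end 14587507), had 11.8, 14, 10.1 and 13.9 CPM with bromhexine and a single count in DMSO replicate 3. The count ratio was 1154, with an exact 95% interval of 207 to 45622 that covers counting error only.

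The gene tat-6 (WBGene00017174) encodes a P4-type ATPase, a class of membrane proteins that move phospholipids between the leaflets of a membrane. It lay at 129, 136, 108 and 126 CPM in the bromhexine libraries and at 0.104, 0.0896, 0.0903 and 0.0373 in the DMSO libraries, a log2 fold change of 10.52 ± 0.16 (SE, adjusted p = 6.64e-14, edgeR). No bromhexine library came near the DMSO range. The gene E02C12.10 (WBGene00017095) had 38.9 to 58.6 CPM with bromhexine and 0.0451 to 0.149 with DMSO (8.64 ± 0.24, adjusted p = 2.29e-11, edgeR), and its counts carry decimals in 4 libraries, so part of its reads was shared with other genes. The P450 gene cyp-34A10 had 32.3 to 36.9 CPM with bromhexine and 0 to 0.226 with DMSO (8.48 ± 0.25, adjusted p = 4.95e-11, edgeR). The other members of the 12 largest increases were Y73C8C.10, cyp-35B2, R09E12.9, T10B5.8, H25K10.4 and the C-type lectin gene clec-68, with log2 fold changes of 8.83 to 10.91. Among the 74 genes up at least 8-fold, 15 were P450 genes, 10 were UDP-glucuronosyltransferase genes and 5 were C-type lectin genes, while 27 were known by a sequence name or identifier only.

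The 12 largest decreases included cuticle collagen genes and low genes without a functional name. The cuticle collagen gene dpy-13 (WBGene00001074) had 0.152 CPM in bromhexine replicate 1 and 0 in the other 3, and it had 7.76, 22.5, 9.84 and 10.3 CPM in the DMSO libraries. Its 3 counts with bromhexine give a count ratio, DMSO over bromhexine, of 406, with an exact 95% interval of 139 to 1971. The groups did not overlap in this gene or in the other 11 of the ranking. C02E7.7 (WBGene00015340) was at 0 in all bromhexine libraries and at 0.762, 2.06, 1.81 and 2.01 CPM with DMSO, at least 53.9-fold lower with the floor of 3 counts over the group (adjusted p = 8.12e-05, edgeR). Its neighbour C02E7.6 (WBGene00015339) had 1 count with bromhexine and 1.32, 2.37, 2.03 and 2.54 CPM with DMSO. Y48G8AL.12 (WBGene00021690, I, start 1218427, end 1219002) was at 0 with bromhexine and at 0.693, 1.12, 0.948 and 0.671 CPM with DMSO, at least 27.9-fold lower (adjusted p = 0.000106, edgeR). These levels are low, and 6 of the 12 largest decreases had a mean log2 CPM under 1, against 0 of the 12 largest increases.

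The gene dpy-5 (WBGene00001067), which encodes a cuticle collagen, had 0.101, 0.132, 0.0440 and 0.151 CPM with bromhexine and 4.40, 12.8, 6.46 and 5.89 with DMSO (log2 fold change -6.01 ± 0.46, adjusted p = 1.2e-06, edgeR). The ground-like gene grl-16, a relative of hedgehog-related genes, had 0.0881 to 0.203 CPM with bromhexine and 3.74 to 10.1 with DMSO (-5.28 ± 0.44, adjusted p = 2.54e-06, edgeR). In dpy-13, dpy-5 and grl-16 alike, DMSO replicate 2 was the highest library. The collagen genes col-73, col-17, col-161 and col-91, with abu-8 and F41F3.3, completed the 12, at log2 fold changes of -7.42 to -5.54. Of the 44 genes down at least 8-fold, 20 were col genes, 3 were dpy genes, 2 were sqt genes and 8 were known by a sequence name only.

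**Figure D1:**
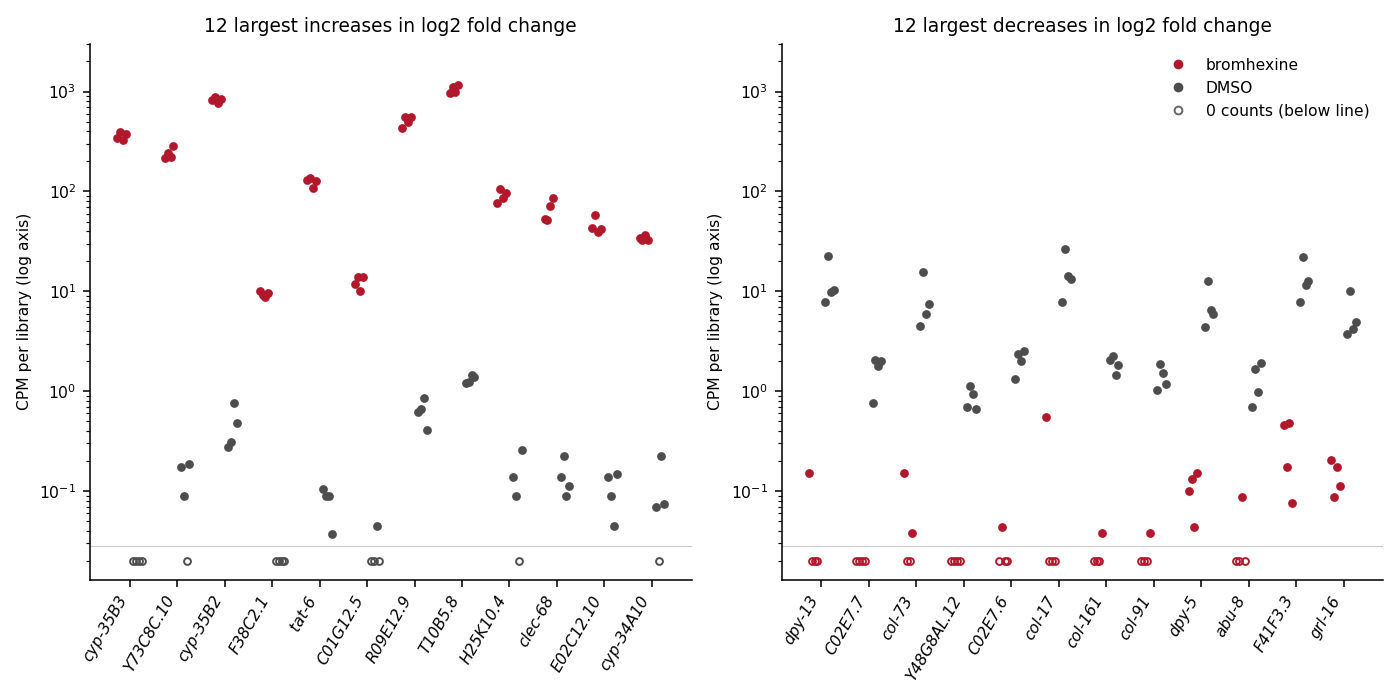
CPM per library, on a log axis, of the 12 genes with the largest increases (left) and the 12 with the largest decreases (right) in log2 fold change. Each point is 1 library, red for bromhexine and grey for DMSO, and open circles below the line are libraries with 0 counts. The groups do not overlap in any of the 24 genes, and no library exceeds 26.8 CPM in the genes that fell.

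Low abundance marked the changed genes, and more so the ones that fell. Of the genes that rose at least 2-fold, 34.7% had a mean log2 CPM under 1, and of those that fell 43.5%, against 21.5% of all tested genes. Ranked by the ratio of mean CPM after adding 1 CPM to each group, 8 of the 12 largest increases and 4 of the 12 largest decreases stayed in place. That ranking brought in the ABC transporter gene pgp-13 (144 CPM with bromhexine, 1.75 with DMSO) among the rises and ram-2 (0.842 and 17.4 CPM), ins-19 (0.560 and 12.7 CPM) and col-117 (1.14 and 16.4 CPM) among the falls.

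**Figure D2:**
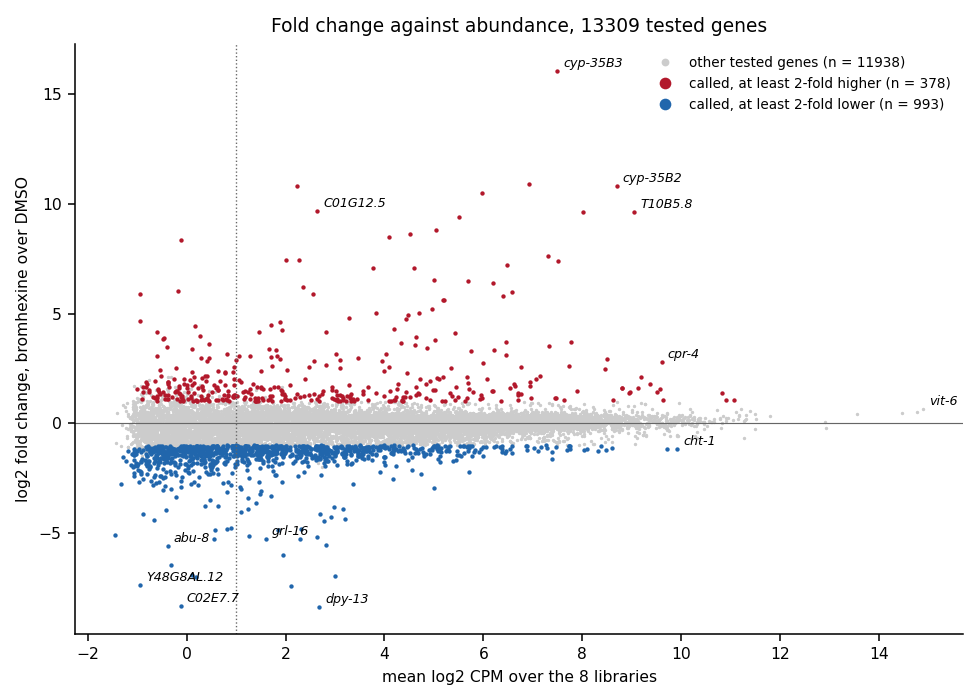
Log2 fold change, bromhexine over DMSO (vertical axis), against the mean log2 CPM over the 8 libraries (horizontal axis) for 13309 tested genes. Red points are the 378 genes called at least 2-fold higher, blue points the 993 called at least 2-fold lower, and the dotted line marks a mean log2 CPM of 1. The blue points crowd to the left, where 432 of them lie under the line, and the red points reach far higher than the blue ones reach down.

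In absolute CPM the changes fell on other genes. The yolk protein gene vit-6 showed the largest rise in mean CPM (36023, 36165, 35602 and 39600 CPM with bromhexine, against 25663, 20392, 22253 and 25586 with DMSO), and the next 3 places went to other vitellogenin genes. The proteases cpr-9, asp-1, asp-3, cpr-4 and asp-6, which work in the gut lumen or in lysosomes, filled the places after them. The intestinal marker ges-1 was higher too (1.43), and the part of intestinal RNA as a whole in these rises was not tested. The cathepsin B-like gene cpr-4 had 1353, 1596, 1183 and 1313 CPM with bromhexine and 142, 138, 240 and 258 with DMSO (2.81 ± 0.20, adjusted p = 4.28e-07, edgeR). T10B5.8 was the only gene of both rankings, at 961 to 1167 CPM with bromhexine and 1.21 to 1.44 with DMSO.

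The chitinase gene cht-1 showed the largest fall in CPM, with 538, 541, 468 and 824 CPM with bromhexine and 1285, 1124, 1593 and 1349 with DMSO (log2 fold change -1.17 ± 0.16, adjusted p = 0.000128, edgeR). The caveolin gene cav-1 had 405, 439, 453 and 734 CPM with bromhexine and 1197, 931, 1327 and 1169 with DMSO (-1.19 ± 0.17, adjusted p = 0.000193, edgeR). In both genes bromhexine replicate 4 was the highest bromhexine library and still lay below every DMSO library. The other falls were smaller in fold: the ribonucleotide reductase gene rnr-2 (-0.55 ± 0.08), the ER chaperone gene hsp-3 (-0.58 ± 0.10), the elongation factor gene eef-1A.2 (-0.56 ± 0.10), the disulfide isomerase gene pdi-2 (-0.56 ± 0.11), the cuticle collagen genes col-95 (-0.67 ± 0.11) and col-143 (-0.52 ± 0.13), and C01G6.3 (-0.93 ± 0.11). The ribosomal protein gene rla-0, at 2397 to 2795 CPM with bromhexine and 2823 to 3468 with DMSO (-0.26 ± 0.09, adjusted p = 0.0254, edgeR), lost its call in some of the alternative fits.

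Changed genes lay next to each other. Among 12839 tested protein-coding genes of the nuclear chromosomes, 366 (2.85%) rose and 953 (7.42%) fell at least 2-fold. The next tested gene along the chromosome had risen in 64 of the 366 (17.5%) and had fallen in 195 of the 953 (20.5%). The stem of the name was shared in 26 of the 64 pairs and in 48 of the 195. Runs of at least 4 consecutive tested genes that all changed at least 2-fold in the same direction numbered 4 among the rises, with 19 genes, and 15 among the falls, with 83 genes.

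All 4 rising runs lay on chromosome V. Between 3936326 and 3952097 stood cyp-35A5, cyp-35B1, cyp-35B2, cyp-35B3 and dach-1. Here cyp-35A5 had 148 to 181 CPM with bromhexine and 10.3 to 14.7 with DMSO (3.70 ± 0.10, adjusted p = 2.1e-11, edgeR), whereas dach-1, the last of the row, had 3.96, 3.92, 3.56 and 4.22 CPM with bromhexine and 1.70, 2.73, 1.17 and 1.34 with DMSO (1.18 ± 0.24, adjusted p = 0.00233, edgeR). A single tested gene, cyp-34A5 (log2 fold change -0.49, not called), separated this row from a second one at 3958160 to 3972991 with cyp-34A6, cyp-34A7, cyp-34A8, cyp-34A9 and cyp-34A10. Within that row the folds were unequal: cyp-34A7 had 10.1 to 13.4 CPM with bromhexine and 0.0746 to 0.242 with DMSO (5.88 ± 0.24, adjusted p = 1.42e-09, edgeR), while cyp-34A6 had 0.640 to 1.14 and 0.316 to 0.450 CPM (1.12 ± 0.32, adjusted p = 0.0142, edgeR) and lost its call in some alternative fits. Past cyp-34A10 the direction turned, and the next 4 tested genes, the peptide genes nlp-34, nlp-31, nlp-30 and nlp-29, were called lower, with log2 fold changes of -1.28, -0.69, -1.72 and -0.81.

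A row of 5 UDP-glucuronosyltransferase genes, enzymes that attach sugars to small lipophilic molecules, stood at 4896048 to 4908304. From left to right, ugt-9 had 36.4 to 51.9 CPM with bromhexine and 1.17 to 1.70 with DMSO, ugt-10 had 1.37 to 2.75 and 0 to 0.226, ugt-67 had 6.74 to 9.08 and 0 to 0.0896, ugt-8 had 30.9 to 46.5 and 2.21 to 4.03, and ugt-14 had 30.2 to 39.9 and 1.32 to 2.82. Their log2 fold changes ran from 3.67 to 7.46, and the groups overlapped in none of the 5. The next tested gene, ugt-13, was called higher as well but by 0.93. The 2 genes after it were C02E7.7 (start 4918136, end 4918574) and C02E7.6 (start 4919207, end 4919591), which stood among the 12 largest decreases. Genes with log2 fold changes of 7.46 and -8.31 lay in 1 stretch of 8 tested genes.

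The remaining rising run, at 3118377 to 3137382, held genes of unlike names: clec-210, Y73C8C.10, tat-6 and F02C9.2. Y73C8C.10 had 215, 244, 222 and 283 CPM with bromhexine and 0.173, 0.0896, 0 and 0.186 with DMSO (10.91 ± 0.20, adjusted p = 3.86e-13, edgeR). F02C9.2 was far lower, at 0.660 to 1.06 CPM with bromhexine and 0.0448 CPM in DMSO replicate 2, with 0 in the other 3 DMSO libraries. Of 6 annotated protein-coding genes inside the run, 2 were not tested.

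Most falling runs contained F-box genes. Of the 15, 10 held fbxb or fbxc genes, in some of them beside genes of other names. Untested genes inside a run were skipped. They were 5 of 14 annotated protein-coding genes in the longest run and 6 of 11 in the run at 12935011 on chromosome IV. The longest, with 9 genes, lay on chromosome V at 19297810 to 19330757 and held fbxb-60, fbxb-61, fbxb-62, fbxb-63, fbxb-65, sdz-6 and 3 genes with sequence names. Its member fbxb-62 had 2.13, 2.25, 2.60 and 4.86 CPM with bromhexine and 11, 11.2, 10.5 and 8.80 with DMSO (-1.79 ± 0.23, adjusted p = 9.62e-05, edgeR). Just to its left, at 19233769 to 19269679, a run of 6 held fbxb-116, fbxb-2, fbxb-115, fbxb-1, F21D9.11 and F21D9.1, where fbxb-1 had 2.24 to 5.61 CPM with bromhexine and 9.14 to 12.3 with DMSO (-1.72 ± 0.25, adjusted p = 0.000213, edgeR). In all 15 genes of both runs except sdz-6, bromhexine replicate 4 was the highest of its group.

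Chromosome II held 7 of the 15 falling runs, each of them in its left part. A run of 8 at 1676388 to 1694630 consisted of F-box genes alone: fbxb-17, fbxb-26, fbxb-25, fbxb-18, fbxb-19, fbxc-22, fbxc-21 and fbxc-26. In it, fbxb-19 had 1.04, 1.89, 1.14 and 2.86 CPM with bromhexine and 10.9, 7.36, 6.96 and 8.05 with DMSO (-2.23 ± 0.27, adjusted p = 6.89e-05, edgeR). Its counts carry decimals in all 8 libraries, so part of its reads was shared with other genes. The gene before it, fbxb-18 (end 1688913), overlaps fbxb-19 (start 1688181) on the same strand and also carries decimals in all 8 libraries. These neighbours may therefore share reads. Runs of 7 began at 1026970 (with fbxb-41, fbxb-45, fbxb-40, the receptor gene str-148 and btb-10), at 1783451 (with fbxb-13, fbxb-10, fbxa-3 and fbxc-19) and at 2091539 (with fbxb-37, math-42, math-37 and sdz-28). In the run at 1783451, the gene C08F1.10 was the most abundant member, at 27.1, 29.9, 29 and 47.1 CPM with bromhexine and 97.0, 83.6, 102 and 90.3 with DMSO (-1.48 ± 0.15, adjusted p = 1.14e-05, edgeR). A run of 6 at 970543 held C32B5.15 and 5 fbxc genes, of which fbxc-40 had 17.7 to 33.8 CPM with bromhexine and 48.3 to 58.3 with DMSO (-1.23 ± 0.17, adjusted p = 0.000153, edgeR). Of the members of falling runs, sdz-6, fbxc-26, T16A1.10, srh-195, fbxc-17, fbxb-116 and fbxb-56 each lost their call in at least 1 alternative fit.

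Other falling runs held other genes. On chromosome X, at 10859301 to 10881637, the transporter genes pgp-8, pgp-7 and pgp-6 stood beside T21E8.4. The most abundant, pgp-6, had 23.2, 23.8, 20.1 and 27.8 CPM with bromhexine and 65.0, 57.0, 74.0 and 59.9 with DMSO (-1.43 ± 0.11, adjusted p = 8.47e-07, edgeR), and both it and pgp-7 share reads with other genes. Also on X, at 11053915 to 11064539, stood C09F12.2 and the lipocalin-related genes lpr-3, lpr-6 and lpr-5, of which lpr-3 acts in the apical matrix of epithelia. The gene lpr-5 had 0.862, 0.881, 0.660 and 1.92 CPM with bromhexine and 6.06, 5.06, 5.69 and 5.71 with DMSO (-2.35 ± 0.27, adjusted p = 4.27e-05, edgeR). On chromosome IV, a run at 12935011 to 12967392 held cld-1, dod-21, dod-24, F55G11.8 and dod-22, with log2 fold changes of -3.08 to -1.44, and a run at 8702884 to 8724876 held H23L24.4, the poly(ADP-ribose) glycohydrolase gene parg-2, the phospholipase gene ipla-5 and F21D5.9. Of these, parg-2 had 5.02 to 7.01 CPM with bromhexine and 16.5 to 21.0 with DMSO (-1.63 ± 0.13, adjusted p = 2e-06, edgeR). On chromosome V, at 4034476 to 4042021, C49G7.7, C49G7.13, C49G7.12 and C49G7.10 fell by 1.23 to 1.43 on the log2 scale.

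The number of falling runs depends on bromhexine replicate 4: without it there were 25 in place of 15, while leaving out any other library gave 12 to 17. The 4 rising runs became 4 or 5 when any library was left out.

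**Figure D3:**
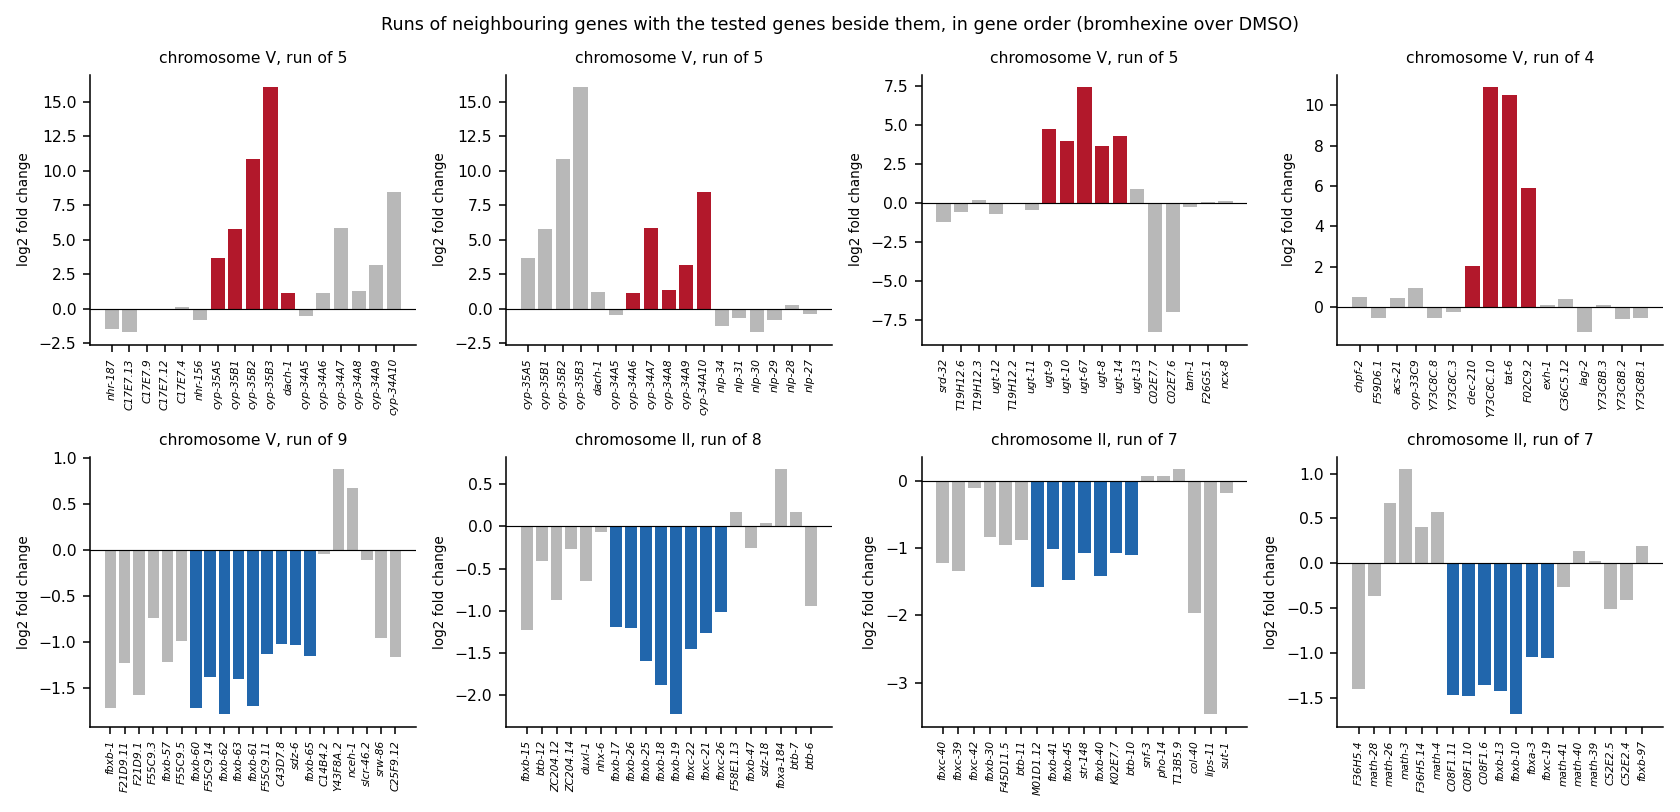
Log2 fold changes, bromhexine over DMSO (vertical axes, scales differ), of neighbouring tested protein-coding genes in chromosome order for 4 rising runs (top) and the 4 longest falling runs (bottom). Red and blue bars are members of the run and grey bars the tested genes on either side. The 2 P450 rows on chromosome V are separated by 1 gene at -0.49, and the UDP-glucuronosyltransferase row is followed by C02E7.7 (-8.31) and C02E7.6.

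The shares of changed genes differed along the chromosomes. On chromosome V, 7.05% of 2453 tested genes rose at least 2-fold, against 0.661% of 2118 on I and 0.672% of 2084 on III. When each chromosome is divided into 4 segments of equal length, the first segment of V had the highest share of rises, 64 of 541 genes (11.8%). P450 genes made up 15 of those 64, out of 23 tested there, and 23 of the 64 were known by a sequence name only. The first segment of II had the highest share of falls, 123 of 532 genes (23.1%). There 31 of 49 fbxb genes, 18 of 28 fbxc genes and 5 of 9 sdz genes fell, and without the fbx, sdz, math, bath and btb genes 62 of 394 remained (15.7%). The last segments of V and I followed with 11.7% and 10.1% of genes lower, and 11 of 13 and 7 of 10 fbxb genes there fell. Chromosome X leaned down as a whole, with a median log2 fold change of -0.18 against 0.00 to 0.04 on the autosomes, and its 4 segments had medians of -0.24 to -0.13.

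**Figure D4:**
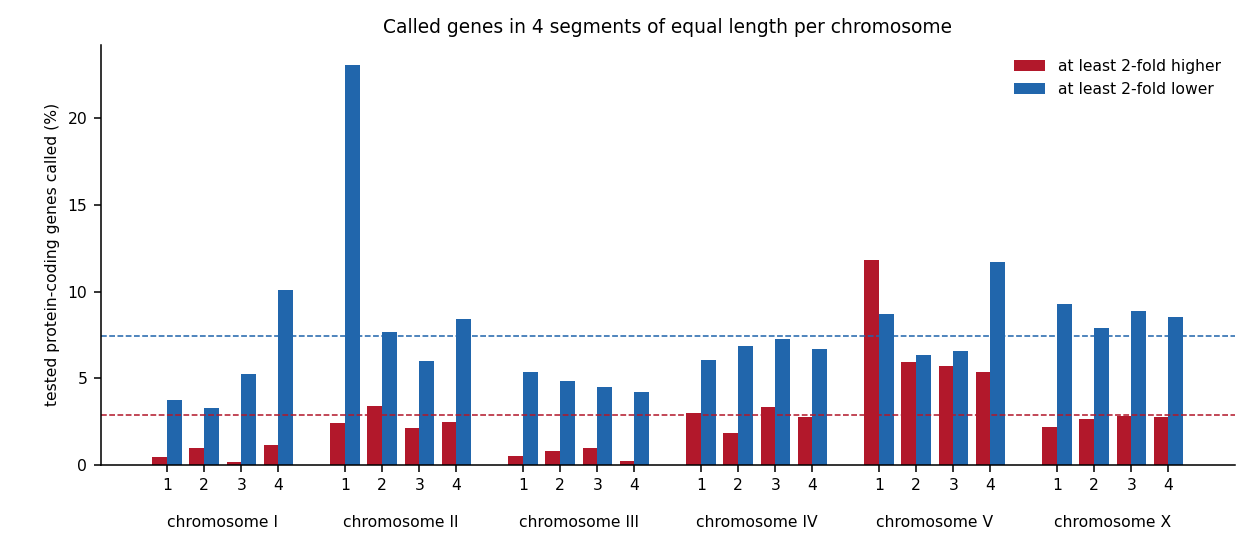
Percent of tested protein-coding genes that rose (red) or fell (blue) at least 2-fold in each of 4 equal segments of the 6 chromosomes, numbered from the left end. Dashed lines mark the percent over all chromosomes, 2.85 for rises and 7.42 for falls. The first segment of II reaches 23.1% for falls and the first segment of V 11.8% for rises.

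The F-box B family had the most members that fell at least 2-fold of all families formed by name. F-box B proteins are one of the large worm-specific expansions of F-box proteins. Of 104 annotated fbxb genes 92 were tested, 73 were called lower and 0 higher, and 61 fell at least 2-fold, with a median log2 fold change of -1.22. Summed over the tested members, the F-box B genes took 203, 243, 219 and 397 CPM in the bromhexine libraries and 704, 590, 672 and 622 in the DMSO libraries. The groups did not overlap, and without bromhexine replicate 4 the count of members down at least 2-fold was 74. Examples beyond the runs are fbxb-6 (1.15 CPM with bromhexine, 5.21 with DMSO, -2.15 ± 0.37, adjusted p = 0.000705, edgeR), fbxb-71 (2.19 and 8.49 CPM, -1.93 ± 0.25, adjusted p = 0.000117, edgeR) and fbxb-85 (4.92 to 6.71 against 11.6 to 14.7 CPM, -1.24 ± 0.14, adjusted p = 2.84e-05, edgeR). Of the fbxb and fbxc genes together, 7 of 10 tested on I, 51 of 84 on II, 3 of 8 on III, 6 of 15 on IV, 12 of 14 on V and 1 of 1 on X fell at least 2-fold, with medians of -1.26, -1.17, -0.88, -0.03, -1.32 and -1.93 in that order.

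Related families, singled out after their values were seen, behaved unlike each other. Among F-box C genes, 22 of 40 were called lower and 5 higher, with 19 down at least 2-fold and a median of -0.82. Without bromhexine replicate 4 these were 25 lower, 7 higher, 21 down at least 2-fold and a median of -1.25. The most significant, fbxc-58, had 7.20, 6.69, 7.13 and 8.55 CPM with bromhexine and 16.8, 20.2, 18.8 and 18.2 with DMSO (-1.32 ± 0.11, adjusted p = 2.99e-06, edgeR). F-box A genes had a median of -0.06, with 13 of 100 tested members down at least 2-fold, and their summed level was 701 to 767 CPM with bromhexine and 695 to 784 with DMSO. The skr genes encode Skp1-related proteins, the subunits that carry F-box proteins in the ligase. Of 19 tested skr genes 10 were called lower and 0 higher, with a median of -0.63. Genes with MATH or BATH in their names, the latter encoding adaptors of another ubiquitin ligase, had medians of 0.02 and 0.07. The first of these medians ranged from -0.05 to 0.15 over the alternatives. Among the math genes, math-3 rose to 11.8 to 12.1 CPM with bromhexine against 5.39 to 6.13 with DMSO (1.05 ± 0.11, adjusted p = 1.51e-05, edgeR). Its counts carry decimals in 7 libraries.

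The sdz genes, named for transcripts that depend on the factor SKN-1 in the embryo, were lower as well. Of 25 tested members 15 were called lower, 12 of them at least 2-fold, and 0 higher, with a median of -1.01. Without bromhexine replicate 4, 20 were called lower, 16 of them at least 2-fold, with a median of -1.38. Their sum was 78.7, 99.0, 87.5 and 159 CPM with bromhexine and 255, 223, 235 and 251 with DMSO, again with bromhexine replicate 4 the highest of its group, and sdz-5 had 8.63 CPM with bromhexine and 37.9 with DMSO (-2.12 ± 0.22, adjusted p = 1.72e-05, edgeR). Genes of the early zygotic embryo were measured beside them, since gravid adults hold embryos. Of 13 listed genes 9 were tested, 1 fell (tbx-11, -1.04 ± 0.19, adjusted p = 0.00108, edgeR) and 0 rose, with a median of -0.41. Their summed level was 18.9 to 32.5 CPM with bromhexine and 31.8 to 38 with DMSO, and no tested member was at 0 in all libraries. The part of embryos in the fall of the F-box and sdz genes was not tested, and in whole worms fewer cells of a type and less RNA per cell cannot be told apart.

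Of 339 families with at least 5 tested members, 7 had at least 4 members that changed at least 2-fold in the same direction and made up at least 50% of those tested: fbxb, bus, srh, str and pud among the falls, and cpr and irg among the rises. The bus genes act in making the worm surface, to which bacteria bind. Of 7 tested, 5 fell, and their sum was 5.93 to 9.68 CPM with bromhexine and 13.6 to 22.2 with DMSO, with bus-5, bus-12, bus-17 and bus-8B at log2 fold changes of -1.39 to -1.06. All 7 tested cpr genes, which encode cathepsin B-like proteases, rose, and their sum was 6302 to 7242 CPM with bromhexine and 2344 to 3197 with DMSO. Of 6 tested pud genes 4 fell, the family summed to 32.3 to 50.7 CPM with bromhexine and 178 to 197 with DMSO, and 4 of the 6 carry decimals in their counts. Of 8 irg genes, 4 rose, among them irg-6 (136 CPM with bromhexine and 13.2 with DMSO, 3.36 ± 0.09), and 2 fell, among them irg-1 (-1.47 ± 0.18).

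The srh and str genes are families of chemoreceptors, mostly expressed in sensory neurons, and most of their members were too low to test. Across all chemoreceptor families 52 of 1310 annotated genes were tested, so the counts describe the few that were detected: 24 were lower and 4 higher, with a median of -0.79. The neuronal marker unc-119 was lower too (-0.74), and the part of neuronal RNA as a whole was not tested. The receptor gene str-7 had 1.37, 2.07, 1.23 and 1.51 CPM with bromhexine and 4.81, 3.72, 5.19 and 4.33 with DMSO (-1.54 ± 0.20, adjusted p = 0.000117, edgeR). In the other direction, srv-1 had 10.1 to 11.8 CPM with bromhexine and 6.27 to 7.50 with DMSO (0.71 ± 0.12, adjusted p = 0.000486, edgeR). Other neuronal lists were mixed. Of 16 guanylyl cyclases 4 fell and 1 rose, with a median of -0.50 (-0.61 to -0.37 over the alternatives). Of 53 ligand-gated channels 9 fell and 6 rose, with a median of 0.01 (-0.12 to 0.03). In both lists the share lower was near or below the 22.4% of all tested genes. The share higher was below the 19.0% of all tested genes in both, so these counts show no excess of rises. Of 15 genes of transmitter synthesis and transport, 5 rose and 1 fell, a share higher above 19.0% and a share lower below 22.4%. The channel genes des-2 and lgc-54 rose (2.16 ± 0.29 and 1.65 ± 0.19) and lgc-21 fell (-2.33 ± 0.31).

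Functional groups outside the detoxification families were described by lists of genes, each with its count of members called and its median beside the 19.0% higher, 22.4% lower and median of 0.00 of all tested genes. Lists of the surface and matrix differed. Enzymes that process collagen had 6 of 13 lower and 2 higher (median -0.43). The disulfide isomerase gene pdi-6 had 244, 248, 219 and 317 CPM with bromhexine and 381, 373, 470 and 395 with DMSO (-0.66 ± 0.11, adjusted p = 0.00053, edgeR), and the prolyl hydroxylase gene dpy-18 had 38.4 to 52.1 and 58.9 to 69.3 CPM (-0.56 ± 0.10, adjusted p = 0.000784, edgeR). Among molting and apical matrix genes 10 of 21 were lower and 3 higher (median -0.40), with dex-1 at -0.95 ± 0.13 and the mucin-like gene mul-1 at 1.33 ± 0.18. Surface glycan and glycosyltransferase genes had 9 of 47 higher and 11 lower (median 0.06), and epithelial junction genes 5 of 24 higher and 7 lower (median 0.01, from -0.03 to 0.04 over the alternatives), both near the shares of all tested genes. None of the 13 collagen processing genes changed 2-fold, unlike the cuticle collagen genes among the largest decreases.

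Basement membrane genes split by molecule. The laminin gamma gene lam-2 had 129, 133, 111 and 186 CPM with bromhexine and 280, 269, 302 and 274 with DMSO (-1.01 ± 0.12, adjusted p = 6.61e-05, edgeR), and the dystroglycan gene dgn-1 had 37 to 56.2 and 84.6 to 97.1 CPM (-1.06 ± 0.12, adjusted p = 2.74e-05, edgeR). In contrast, the perlecan gene unc-52 had 40.8 to 51.5 CPM with bromhexine and 26.8 to 33.4 with DMSO (0.66 ± 0.09, adjusted p = 0.000181, edgeR). The other laminin genes lam-1, lam-3 and epi-1 were called lower too (-0.71, -0.80 and -0.60), and the type IV collagen genes emb-9 and let-2 were called higher (0.54 and 0.55), named here after their values were seen. In the whole list 8 of 23 members were lower and 4 higher. Gap junction innexins gave 3 of 24 lower and 4 higher (1 to 4 higher over the alternatives), with inx-2 and inx-3 among the lower ones: inx-2 had 87.0 to 132 CPM with bromhexine and 198 to 250 with DMSO (-1.12 ± 0.13, adjusted p = 4.53e-05, edgeR), and inx-3 had 181 to 265 and 367 to 432 (-0.94 ± 0.11, adjusted p = 4.2e-05, edgeR).

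Carbohydrate and amino acid metabolism leaned up by small amounts. Of 17 trehalose and glycogen genes 12 were higher and 3 lower (median 0.30). The trehalose-phosphate synthase gene tps-1 had 42.7, 42.1, 38.9 and 40.2 CPM with bromhexine and 24.1, 22.4, 22.6 and 23.8 with DMSO (0.82 ± 0.07, adjusted p = 4.19e-06, edgeR), and the trehalase gene tre-3, whose enzyme breaks trehalose down, had 44.3 to 55.9 and 19.1 to 27.3 CPM (1.01 ± 0.11, adjusted p = 3.45e-05, edgeR). Of 14 genes that break down branched-chain amino acids or glycine, 11 were higher and 1 lower (median 0.26). The glycine decarboxylase gene gldc-1 had 105, 111, 101 and 124 CPM with bromhexine and 51.4, 51.8, 55.3 and 55.8 with DMSO (1.04 ± 0.07, adjusted p = 2.69e-07, edgeR), and the branched-chain aminotransferase gene bcat-1 rose by 0.64 ± 0.10 and ivd-1 by 0.41 ± 0.05. The groups overlapped in none of these genes.

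The gene cth-1 encodes a cystathionine gamma-lyase, which makes cysteine, and had 28, 32.9, 27.2 and 39.3 CPM with bromhexine and 78.0, 67.1, 94.0 and 78.1 with DMSO (-1.31 ± 0.12, adjusted p = 7.04e-06, edgeR). In the list of hydrogen sulfide, cyanide and hypoxia genes, 4 of 18 were lower, a share of 22.2% close to that of all tested genes, and 0 higher (median -0.08), with the sulfide oxidizing enzyme gene sqrd-1 at -0.42 ± 0.09. Genes that break down tyrosine and tryptophan were split, 3 of 12 higher and 5 lower, with the phenylalanine hydroxylase gene pah-1 at 56.0 to 77.4 CPM with bromhexine and 32.0 to 40.9 with DMSO (0.94 ± 0.10, adjusted p = 2.74e-05, edgeR) and nkat-3 at -0.56 ± 0.09.

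Esterases and dehydrogenases included large rises outside the P450 and glucuronosyltransferase families. The carboxylesterase gene cest-35.2 had 178, 213, 181 and 184 CPM with bromhexine and 2.49, 2.78, 3.02 and 3.69 with DMSO (5.98 ± 0.11, adjusted p = 3.8e-13, edgeR). Its relative cest-35.1 had 39.9 to 52.9 and 2.93 to 4.25 CPM (3.59 ± 0.13, adjusted p = 4.31e-10, edgeR), and cest-33 had 76.9 to 89.8 and 17.3 to 21.0 CPM (2.10 ± 0.08, adjusted p = 5.76e-10, edgeR). In the list of lipases, carboxylesterases and epoxide hydrolases 15 of 38 were higher and 9 lower (median 0.32), and the lipase gene lips-11 was among the lower ones, at -3.47 ± 0.47. The aldehyde dehydrogenase gene alh-5 had 53.0, 61.2, 45.1 and 53.9 CPM with bromhexine and 6.20, 4.97, 4.29 and 4.36 with DMSO (3.42 ± 0.13, adjusted p = 9.05e-10, edgeR), followed in its list by the alcohol dehydrogenase genes sodh-2 (2.69 ± 0.15) and adh-1 (77.8 to 106 CPM with bromhexine and 30.2 to 42.4 with DMSO). In that list 11 of 25 were higher and 3 lower (median 0.17).

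Some peptidase genes rose as well. The carboxypeptidase gene ctsa-1.2, of the cathepsin A type, had 944, 1165, 803 and 844 CPM with bromhexine and 150, 250, 233 and 241 with DMSO (2.10 ± 0.16, adjusted p = 8.23e-07, edgeR), and ctsa-3.1 and ctsa-2 rose by 1.39 ± 0.15 and 0.92 ± 0.10. In the list of serine proteases and peptidases 13 of 37 were higher and 4 lower (median 0.26). The serpins and cystatins, which inhibit proteases, had 0 of 10 higher and 2 lower. The fatty acid and retinol binding gene far-3 had 609, 758, 622 and 711 CPM with bromhexine and 191, 181, 259 and 254 with DMSO (1.61 ± 0.12, adjusted p = 8.79e-07, edgeR).

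Single transporter genes changed in both directions. The water channel gene aqp-1 had 16.2, 22.8, 16.2 and 21.8 CPM with bromhexine and 5.58, 7.62, 6.14 and 5.18 with DMSO (1.66 ± 0.16, adjusted p = 8.23e-06, edgeR), whereas aqp-2 and aqp-10 fell by 0.84 ± 0.15 and 0.69 ± 0.13. The sugar transporter gene swt-7 (1.09 ± 0.09), the nucleoside transporter gene ent-4 (0.91 ± 0.12) and the monocarboxylate transporter gene mct-4 (0.85 ± 0.12) rose, in a list with 14 of 44 higher and 8 lower. That list had 31.8% higher and 18.2% lower, against 19.0% and 22.4% of all tested genes. Among ion transporters 10 of 52 were higher (19.2%) and 7 lower (13.5%), near or below those shares. The sodium pump-like gene catp-3 had 19.3 to 33.0 CPM with bromhexine and 56.9 to 74.2 with DMSO (-1.47 ± 0.14, adjusted p = 1.14e-05, edgeR). The bestrophin channel gene best-7 had 9.47 to 13.9 CPM with bromhexine and 2.75 to 5.29 with DMSO (1.67 ± 0.20, adjusted p = 5.37e-05, edgeR).

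Transcription factors and developmental signals leaned down. Of 60 homeobox genes 24 were lower and 4 higher (median -0.31). The gene ceh-43, the worm's Distal-less type factor, had 13.4, 13.8, 13 and 22.2 CPM with bromhexine and 44.0, 36.6, 42.2 and 41.5 with DMSO (-1.39 ± 0.15, adjusted p = 3.04e-05, edgeR), and ceh-36 and ceh-27 fell by 1.38 ± 0.18 and 1.26 ± 0.16. Of 45 GATA, bHLH, bZIP, KLF and T-box factors 16 were lower and 2 higher (median -0.26), with hlh-3 at -1.08 ± 0.17 and the defence factor gene zip-2 at -0.55 ± 0.08. The Wnt ligand genes cwn-1 and cwn-2 had 5.48 to 8.93 and 5.63 to 8.51 CPM with bromhexine and 14.7 to 19.9 and 13.8 to 16.5 with DMSO (-1.25 ± 0.15 and -1.19 ± 0.14, adjusted p = 7.2e-05 and 4.76e-05, edgeR). In the list of Wnt, Notch, EGF and FGF genes 16 of 36 were lower and 9 higher (median -0.19). Many of these factors act in embryos, and the zygotic embryo genes given above had 1 of 9 members lower and a median of -0.41. Their part was not tested.

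Among markers of other cell types, genes of glia, the support cells of sense organs, had 3 of 8 lower and 0 higher. The lower ones were mls-2, che-14 and ptr-10, at -1.06, -1.03 and -1.25, and ptr-10 lost its call without bromhexine replicate 2. The remaining members daf-6, lin-26, kcc-3, fig-1 and vap-1 were not called, at 0.34, 0.16, 0.07, 0.03 and -0.22. The median of the list was -0.10. The list summed to 129 to 146 CPM with bromhexine and 132 to 141 with DMSO. Most of that sum was 1 gene, lin-26, at 107 to 128 CPM with bromhexine and 105 to 113 with DMSO. The sum therefore says little of the other members. Gonad sheath and spermatheca genes had 3 of 8 higher and 0 lower. Over the alternatives 2 to 3 were higher and 0 to 1 lower. The call of inx-9 (0.40 ± 0.14, adjusted p = 0.0438, edgeR, with overlapping groups) was lost in some of these fits. This list had a summed level of 674 to 819 CPM with bromhexine and 531 to 626 with DMSO. The filamin gene fln-1 had 396 to 506 CPM with bromhexine and 260 to 341 with DMSO (0.56 ± 0.09, adjusted p = 0.00053, edgeR). It made up the largest part of that sum and of its rise. Coelomocyte genes had 1 of 4 higher, and genes of the pharyngeal gland and uterine lumen 1 of 11 lower and 0 higher. Of 10 genes of males, 1 was tested (try-5, 1.32 to 4.14 CPM with bromhexine and 4.77 to 5.82 with DMSO). Of the genes of kinesin-II, a motor of cilia, klp-11 and kap-1 fell (-2.65 ± 0.55 and -1.09 ± 0.19, adjusted p = 0.00246 and 0.000727, edgeR), while klp-20, for the other motor subunit, lay at 15.5 to 17.6 CPM with bromhexine and 13.5 to 16.5 with DMSO (0.16 ± 0.10, adjusted p = 0.226, edgeR). The counts of klp-11 carry decimals in all 8 libraries. The kinesin gene osm-3 was not called (-0.19 ± 0.13, adjusted p = 0.252, edgeR). In the whole list of cilium genes 5 of 33 were lower and 1 higher (median -0.13). These shares, 15.2% and 3.03%, were below the 22.4% lower and 19.0% higher of all tested genes.

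Genes of translation and RNA processing changed little. Of 32 splicing factors 11 were lower and 1 higher, with a median of -0.09, and the lowest p belonged to the core snRNP gene snr-3, at 170 to 188 CPM with bromhexine and 223 to 252 with DMSO (-0.43 ± 0.06, adjusted p = 0.000137, edgeR). Nucleolar and RNA polymerase I genes had 6 of 21 lower and 1 higher (median -0.08), initiation and elongation factors 7 of 40 lower and 4 higher (median -0.01, from -0.05 to 0.01 over the alternatives), aminoacyl-tRNA synthetases 8 of 32 higher and 3 lower (median 0.09), and nuclear pore genes 7 of 26 higher and 3 lower (median 0.07). The number of nucleolar genes called lower ranged from 1, without bromhexine replicate 2, to 7 over the alternatives. The numbers called higher ranged from 4 to 10 for the synthetases and from 3 to 10 for the nuclear pore genes, with 10 in both lists without bromhexine replicate 4. Of the last 4 lists, none held a gene that changed 2-fold.

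**Figure D5:**
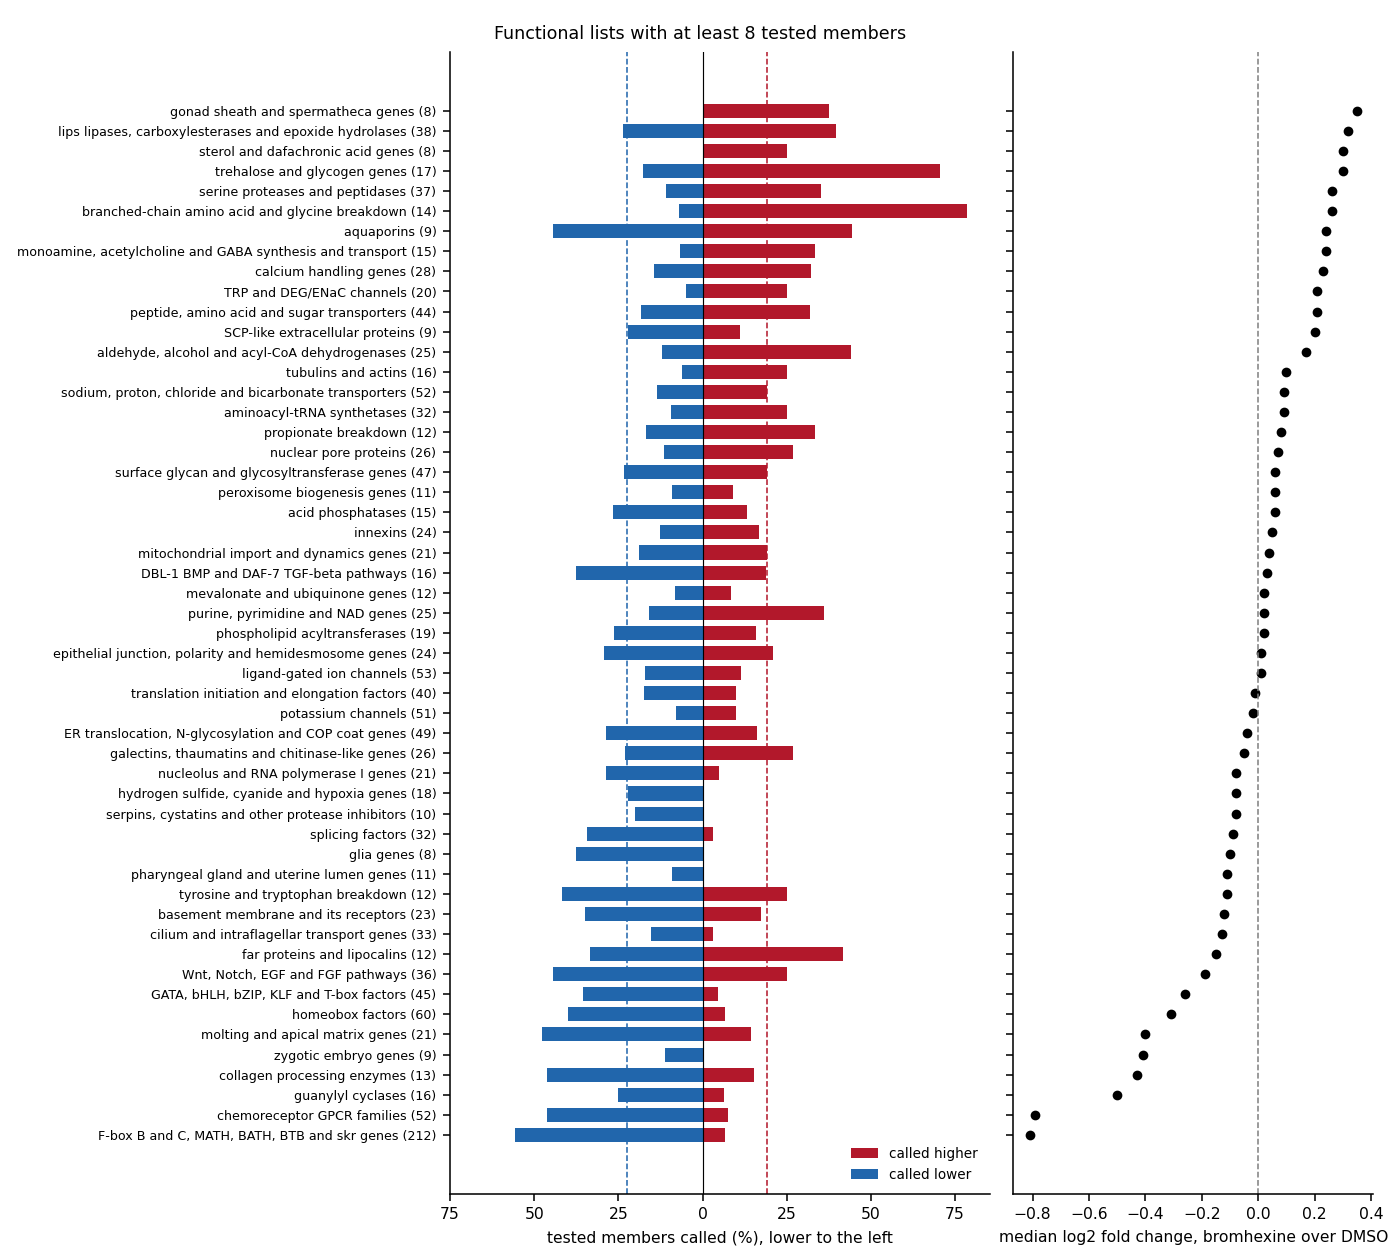
Functional lists with at least 8 tested members (number in parentheses). Left, percent of members called higher (red, to the right) and lower (blue, to the left), with dashed lines at 19.0% and 22.4%, the shares over all tested genes. Right, median log2 fold change, bromhexine over DMSO, with a dashed line at 0. The lists of F-box and related genes (median -0.81) and chemoreceptors (-0.79) lie lowest, and branched-chain amino acid and glycine breakdown has the largest share called higher (78.6%).

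Outside protein-coding genes, 381 pseudogenes were tested, of which 11 (2.89%) rose and 35 (9.19%) fell at least 2-fold, close to the shares of protein-coding genes. Besides the pseudogene at 0 in DMSO, WBGene00271786 (IV, start 911474) rose to 3.14 CPM with bromhexine against 0.339 with DMSO (3.19, adjusted p = 3.94e-06, edgeR). The most abundant changed RNA of these classes was the noncoding RNA W05H9.3 (X, start 6252274), at 218 CPM with bromhexine and 445 with DMSO (-1.03, adjusted p = 1.63e-05, edgeR). Of 24 lincRNAs, 1 fell at least 2-fold and 0 rose. Genes known by a sequence name only were changed slightly more often than named ones: 3.05% of 5045 rose and 8.60% fell at least 2-fold, against 2.72% and 6.65% of 7805 genes with a class name.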

How the data were processed

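RNA was extracted from whole worms with an RNeasy micro kit and sequenced as paired reads on a HiSeq4000, per the labels' protocols. The authors deposited expected counts per gene from RSEM 1.3.3, made from reads aligned with STAR 2.7.11b to WBcel235, per the submitters' processing notes. For the annotation release, trimming and strand setting, the sources used here give no statement. Of the deposited values 2.06% carry decimals, because RSEM divides reads between similar genes. For the fits, these expected counts were rounded to whole numbers. All 46926 gene identifiers matched the WBcel235 annotation used for names, classes and positions.

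The 4 bromhexine and 4 DMSO libraries were fitted with edgeR 4.0.16 (R 4.3.3, limma 3.58.1), with filterByExpr, TMM scaling, the quasi-likelihood test and Benjamini-Hochberg adjustment over all tested genes; calls were made below 0.05. The 4 genipin libraries of the series were left out of this fit. They entered only the alternative fit of all 12 libraries and the summed levels given at the end. Levels given as CPM are the deposited expected counts, with their decimals, over the scaled library total. SE was obtained by dividing the absolute log2 fold change by the square root of F. Against a group at 0 a fold is a lower bound at a floor of 3 counts over the group; with 1 to 3 counts the count ratio has an exact 95% interval. Intervals and floors cover counting error only. The procedure was tested on simulated data.

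A run is at least 4 consecutive tested protein-coding genes called at least 2-fold in the same direction. Families are genes that share the stem of their symbol; families by protein similarity were not built. Named genes are the 12 largest increases and decreases in fitted fold, the 10 largest rises and falls in mean CPM, members of runs, up to 3 called genes with the smallest p in each list with at least 3 called, and up to 4 members of each family with at least 5 tested and at least 4, and 50%, called at least 2-fold in the same direction. The members and lists were chosen with earlier results of these data known, and the chromosome segments, the 8-fold groups and the families fbxa, fbxc, sdz, skr, math and bath were picked after their values were seen. The alternatives were RLE and upper quartile scaling, other filters, DESeq2 1.42.0, a fit of all 12 libraries, a replicate block, leaving out each library, a stricter threshold, other run definitions and a ranking by CPM plus 1.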

Additional observations from a re-analysis of the deposited data

Results flagged for a closer look

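By chance about 1 in 20 groups of 4 libraries holds a library far from the other 3. That rate cannot be applied where the others are at 0, since any count then stands out. Of 198 groups examined, which share libraries, 21 held such a library. In 7 genes among the largest changes this was a library with a few counts where the others had 0: C01G12.5 (0.0451 CPM in DMSO replicate 3), dpy-13 (0.152 in bromhexine replicate 1), C02E7.6 (0.044 in bromhexine replicate 2), col-17 (0.558 in bromhexine replicate 1), col-161 and col-91 (0.0377 each in bromhexine replicate 4) and abu-8 (0.088 in bromhexine replicate 3).

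Bromhexine replicate 4 stood above the other bromhexine libraries in vit-6 (39600 CPM, others 35602 to 36165), vit-2 (35572, others 31378 to 31655), vit-4 (15641, others 12877 to 13308), cav-1 (734, others 405 to 453) and col-95 (1250, others 886 to 926). It was also the high library in the mean log2 CPM of epithelial junction genes (5.94, others 5.70 to 5.73) and of serine proteases and peptidases (4.07, others 3.79 to 3.83). DMSO replicate 3 was high in hsp-3 (1317 CPM, others 1090 to 1118), in the mean log2 CPM of male genes (2.56, others 2.28 to 2.30) and in the percent of counts from ribosomal RNA (1.08, others 0.246 to 0.321). The remaining single libraries, in mean log2 CPM of a list, were DMSO replicate 4 in molting and apical matrix genes (3.89, others 4.04), bromhexine replicate 3 in purine, pyrimidine and NAD genes (5.32, others 5.45), DMSO replicate 2 in Wnt, Notch, EGF and FGF genes (4.54, others 4.59 or above) and DMSO replicate 1 in transmitter synthesis and transport genes (1.80, others 1.64 to 1.66).

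The genipin libraries, left out of the main fit, also held reads of the 12 genes with the largest increases. Their summed level was 123, 16.8, 19.7 and 9.92 CPM in genipin replicates 1 to 4, scaled by the plain library total. On the same scale the sum was 2976, 3487, 3046 and 3450 CPM with bromhexine and 2.96, 2.97, 3.79 and 3.20 with DMSO. All 4 genipin values lay above the DMSO range, and the difference was not tested. The 12 genes were picked for their rise over DMSO in these data, so the DMSO range was low by that choice. An earlier look at the whole series estimated bromhexine counts in genipin replicate 1, which is why genipin was left out of the main fit. Whether genipin raises these genes was not tested.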

How the results depend on the processing

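The 5503 called genes became 3253 at an adjusted p under 0.01 and 4292 to 6495 when a library was left out, the highest without bromhexine replicate 4; other scalings, filters, DESeq2 and the fit of all 12 libraries gave 5210 to 5745. Higher genes made up 45.9% of the calls, against 37.9% with upper quartile scaling. With the replicate block 4828 genes were called (2161 higher, 2667 lower). Deviations from the group means in same-numbered libraries had correlations of 0.005, -0.095, -0.004 and -0.144, within the -0.193 to 0.224 of the other pairs. No pairing by number was seen, but 4 libraries a group cannot exclude it. Leaving out a library gave 4 to 5 rising and 12 to 25 falling runs. With at least 3 genes a run there were 10 rising and 37 falling runs, with at least 5 genes 8 falling, and with no fold minimum 36 and 75. These follow from the definitions; for the 25 runs without bromhexine replicate 4 the cause was not tested. Of 4066 values of 272 named genes under alternatives, 4013 kept the call and direction, 53 in 16 genes lost the call and 0 reversed. Of 810 list medians, 30 moved by more than the spread between libraries. Genes with few counts have wide folds, and 42 genes at 0 with bromhexine and 18 at 0 with DMSO had a count in every library of the other group, of which 2 and 3 were tested.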
